A study of Mus musculus with 12 samples.

Results

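The peaks of RNA polymerase II (RNAPII) phosphorylated at serine 5 (Ser5p) and at serine 2 (Ser2p) in mouse embryonic stem cells (mESCs) were compared. All peaks of both deposited lists were taken, 4490 for Ser5p and 1675 for Ser2p, which are 6165 of the 128567 peaks in the 7 ChIP-seq lists of the series. Of these, 4487 Ser5p and 1673 Ser2p peaks lay on the assembled chromosomes and were analysed.

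The largest subunit of RNAPII ends in a tail of repeated heptapeptides, the C-terminal domain (CTD), whose serines are phosphorylated in the course of transcription. Serine 5 is phosphorylated by the kinase of TFIIH as the polymerase leaves the promoter, and Ser5p marks polymerase that has initiated or is paused close to the start. Serine 2 is phosphorylated later, by P-TEFb and by CDK12 and CDK13, and Ser2p marks elongating polymerase and helps to recruit the factors that cleave and polyadenylate the transcript.

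Both libraries were made from E14 (E14TG2a) mESCs, an established line grown in serum with LIF, without any other treatment. Ser5p was precipitated with antibody 13523S (Cell Signaling) and Ser2p with antibody ab5095 (Abcam). The study's text names the line in more than one way: in one place the Ser5p experiment used mESCs with GFP-tagged NELFA, a subunit of the pausing complex NELF, and in another both marks were measured in mESCs with no tag named. If the lines differed, antibody and cell line cannot be told apart. Each mark was measured in 1 library, so that no difference below has a replicate check and no p-value is given, and the intervals in brackets are exact 95% Clopper-Pearson intervals that cover counting error over peaks or genes only.

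Gene expression came from 1 RNA-seq library of mESCs (26400407 estimated counts), as TPM (length-scaled transcript abundance) of the highest transcript of each gene. The defining markers of mESCs were high, with 1402 TPM for *Pou5f1*, 364 TPM for *Sox2*, 281 TPM for *Nanog*, 211 TPM for *Esrrb* and 286.0 TPM for *Zfp42*. The fibroblast collagens *Col1a1*, *Col1a2* and *Col5a1* were at 0.203, 0.132 and 2.38 TPM. A longer list of 24 fibroblast genes, used below, had a median of 0.168 TPM, but its members *Sparc*, *Vim* and *Fn1* were at 187, 162 and 75.7 TPM.

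The sequences below were chosen because they show where the marks were found on 3 expressed genes. These are *Ptma*, the gene of prothymosin alpha (ENSMUSG00000026238, mm10 chr1:86526726-86530712, plus strand), *Ppia*, the gene of the prolyl isomerase cyclophilin A (ENSMUSG00000071866, chr11:6415443-6419817, plus strand), and *Nanog*, a core pluripotency factor (ENSMUSG00000012396, chr6:122707489-122714633, plus strand). Promoters are the 100 bases before a RefSeq start (GRCm38.p6), at chr1:86526457-86526556 and chr6:122707465-122707564, both overlapped by a Ser5p peak, whereas the stretch before another RefSeq start of *Nanog* was not overlapped and is not shown. Ends are the last 30 bases of the gene, at chr1:86530683-86530712, chr11:6419788-6419817 and chr6:122714604-122714633. Summits are 61 bases at the strongest Ser2p peak of the gene, at chr1:86532138-86532198, chr11:6420440-6420500 and chr6:122715460-122715520. All are written 5′ to 3′ on the plus strand of mm10, and capitals mark AATAAA in the ends, which that of *Ptma* lacks, and the summit base in the Ser2p peaks.
Ptma promoter: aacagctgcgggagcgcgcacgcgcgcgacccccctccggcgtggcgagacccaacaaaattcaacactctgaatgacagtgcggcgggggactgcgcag
Ptma end: gctgagttgttctaacaatggtgtctcaaa
Ptma Ser2p summit: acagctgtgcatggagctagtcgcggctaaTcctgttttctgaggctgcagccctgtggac
Ppia end: attatgAATAAAaactaaataagaactgtt
Ppia Ser2p summit: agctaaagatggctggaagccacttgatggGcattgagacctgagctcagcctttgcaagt
Nanog promoter: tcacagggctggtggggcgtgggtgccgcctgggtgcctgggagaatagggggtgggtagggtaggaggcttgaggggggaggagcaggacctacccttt
Nanog end: aaacaaAATAAAacactaattttaccttta
Nanog Ser2p summit: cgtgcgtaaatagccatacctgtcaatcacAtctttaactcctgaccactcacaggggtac

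The Ser2p summits lay downstream of the gene, 653 bps past the end of *Ppia*, 857 bps past the end of *Nanog* and 1456 bps past the end of *Ptma*. AATAAA, the usual cleavage and polyadenylation signal, was present in the last 30 bases, on the sense strand, of 50.6% of the 21938 protein-coding genes, and in 51.8% of those with both marks.

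The 2 lists were close in peak width and fold and differed in number. The width of Ser5p peaks had a median of 414 bps and their fold over the local background a median of 4.66, up to 35.9, and together they covered 2.93 Mb. For Ser2p the medians were 429 bps and 4.79, with folds up to 27.6, and the peaks covered 1.13 Mb. Peaks wider than 2 kb made up 4.64% of the Ser5p list and 5.80% of the Ser2p list. The files hold no read totals for the lists, and the study's methods give only a target depth common to its samples, so that the depth obtained is unknown and the difference in their number cannot be told apart from a difference in depth or in the antibodies.

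Most Ser2p peaks lay on a Ser5p peak, but most Ser5p peaks stood alone. Of the Ser2p peaks, 1047 (62.6%, 60.2 to 64.9) overlapped a Ser5p peak by at least 1 bp, whereas 972 Ser5p peaks (21.7%, 20.5 to 22.9) overlapped a Ser2p peak. In bases, the shared 764 kb were 67.8% of the Ser2p and 26.0% of the Ser5p peaks. Where peaks overlapped, the summits were close, at a median of 177 bps over 1134 pairs, and the Ser5p fold was at a median of 1.06 times the Ser2p fold. These shares depended on the length of the lists, and with the Ser5p list shortened to its strongest peaks, as many as in the Ser2p list, the overlap was 40.7% of the Ser2p and 33.4% of the Ser5p peaks.

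Overlap rose with the strength of the peak only in the upper part of each list. When each list was split by fold into 5 bins of equal size, Ser2p peaks met a Ser5p peak in 50.1%, 50.3% and 48.7% of the 3 lowest bins, in 69.5% of the next and in 94.3% (91.3 to 96.6) of the highest. Ser5p peaks met a Ser2p peak in 14.9% of the lowest and 40.8% (37.5 to 44.1) of the highest bin, so that 532 of the 898 strongest Ser5p peaks had no Ser2p peak on them. Shared peaks were wider and stronger than the others in both lists. Ser5p peaks with a Ser2p peak had a median width of 696 bps and fold of 5.50, against 378 bps and 4.55 without, and Ser2p peaks with a Ser5p peak had a median width of 584 bps and fold of 5.24, against 305 bps and 4.36.

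**Figure D1:**
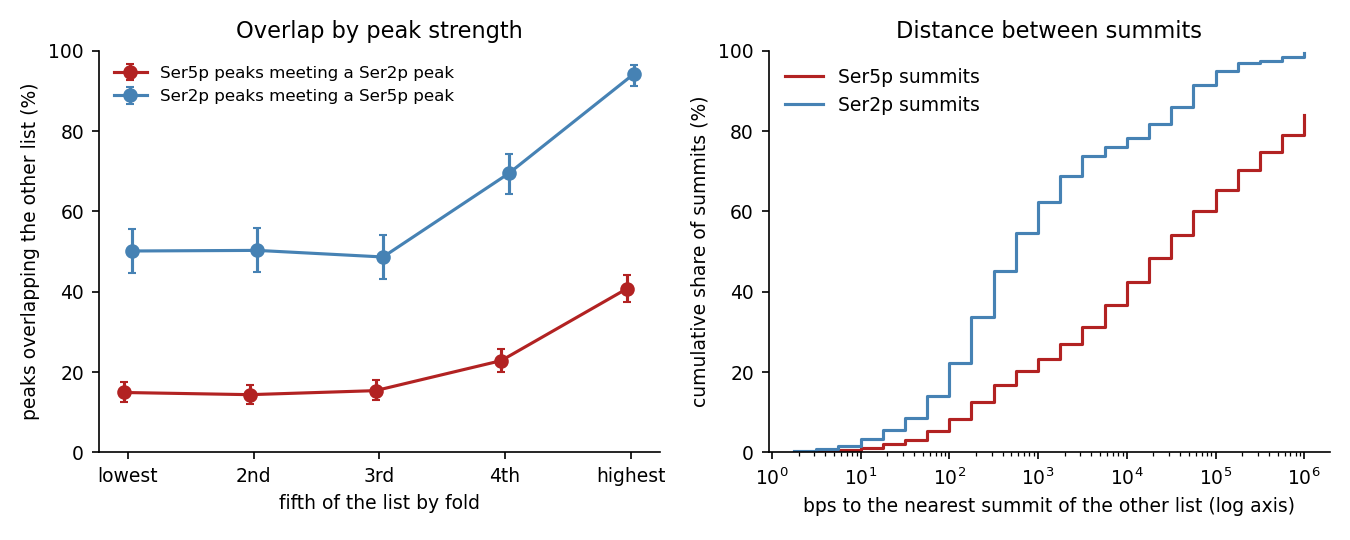
Left, the share of peaks of each list that overlap a peak of the other list (y axis, %) by 5 bins of fold (x axis), with exact 95% binomial intervals as bars, and right, the cumulative share of summits (y axis, %) by distance to the nearest summit of the other list (x axis, bps, log axis). The Ser2p curve lies above the Ser5p curve, with 52.8% of Ser2p and 19.5% of Ser5p summits within 500 bps.

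Ser5p summits were more frequent at gene starts than Ser2p summits, and Ser2p summits were more frequent at and past gene ends than Ser5p summits. A summit was counted as start where a protein-coding gene started within 1 kb of it, otherwise as end where one ended within 1 kb, then as body inside a gene, then as past end from 1 to 5 kb downstream. Of the Ser5p summits, 38.0% (36.6 to 39.5) were at starts, 10.7% (9.85 to 11.7) at ends, 25.8% in bodies, 5.44% (4.79 to 6.14) past ends and 20.0% elsewhere. Of the Ser2p summits, 21.2% (19.2 to 23.2) were at starts, 27.3% (25.1 to 29.5) at ends, 24.8% in bodies, 17.9% (16.1 to 19.8) past ends and 8.91% elsewhere. Relative to an even spread over the genome, starts held 25.1 times as many Ser5p and 14.0 times as many Ser2p summits, and ends held 7.53 times as many Ser5p and 19.1 times as many Ser2p summits.

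Many of the Ser2p summits counted at starts lay at the end of a neighbouring gene as well. Of the 354 Ser2p summits within 1 kb of a start, 167 (47.2%) were also within 1 kb of a gene end, against 183 of 1706 (10.7%) for Ser5p. With ends counted before starts, the Ser2p shares were 11.2% at starts and 37.2% at ends, and with windows of 500 bps in place of 1 kb they were 16.0% and 15.4%. Positions were therefore also read on the 7733 isolated protein-coding genes, which have no other protein-coding gene within 10 kb. Along these genes 39.3% (36.5 to 42.3) of 1126 Ser5p summits but 7 of 337 Ser2p summits (2.08%, 0.839 to 4.23) were within 1 kb of the start. Ends held 6.75% of the Ser5p and 23.4% (19.0 to 28.3) of the Ser2p summits, and the stretch 1 to 5 kb past the end held 7.46% and 32.3% (27.4 to 37.6). In the bodies the lists were close, at 36.1% (33.3 to 39.0) and 31.5% (26.5 to 36.7).

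**Figure D2:**
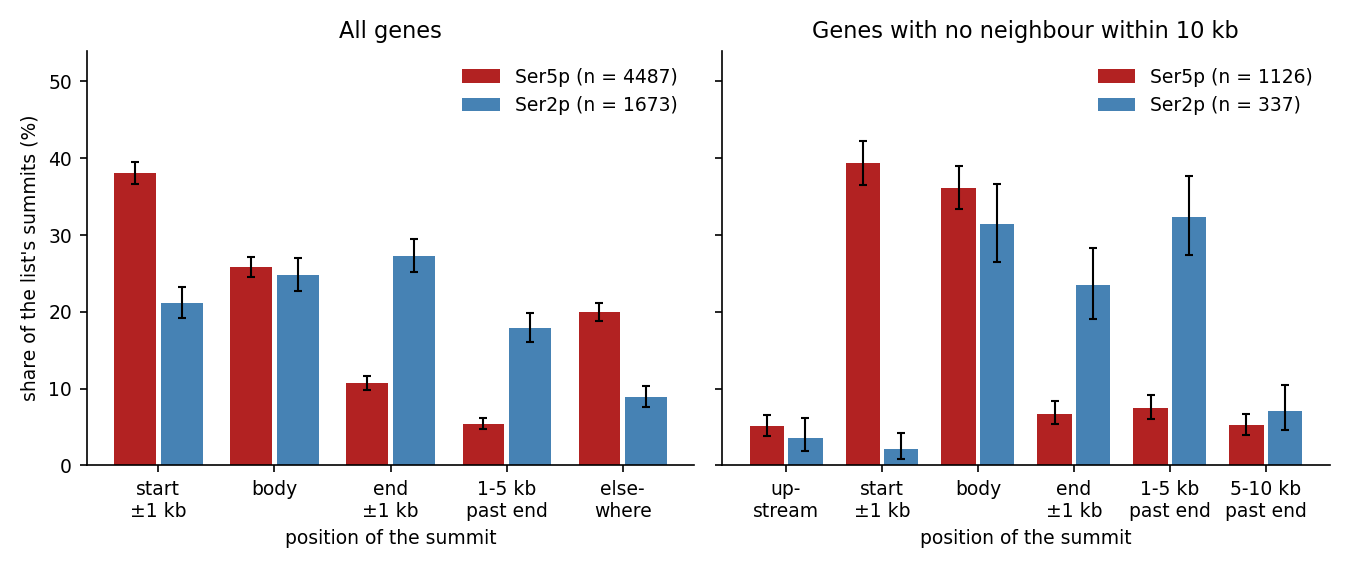
Share of each list's summits (y axis, %) by position relative to protein-coding genes (x axis), for all genes (left, 4487 Ser5p and 1673 Ser2p summits) and for genes with no protein-coding neighbour within 10 kb (right, 1126 and 337 summits), with exact 95% binomial intervals. The Ser2p bar at starts falls from 21.2% on the left to 2.08% on the right, while the Ser5p bar stays at 38.0% and 39.3%.

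Along isolated genes in finer steps, with each body divided into 10 equal bins, the first bin held 28.4% of the Ser5p summits and the kb before the start 13.9%, and each later bin of the body held between 2.04% and 4.88%. For Ser2p, the first 4 bins each held 3.26%, the last bin of the body 9.79%, and the first 3 kb past the end 19.0%, 15.1% and 8.90%, in that order. Ser5p had 4.88% in the last bin and 4.97%, 4.09% and 1.33% in these 3 kb. The strongest Ser5p summit of an isolated gene lay at a median of 212 bps downstream of the start (interquartile range 16.0 to 4284, 529 genes), and the strongest Ser2p summit at a median of 740 bps past the end (−925.5 to 1529.5, 147 genes).

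**Figure D3:**
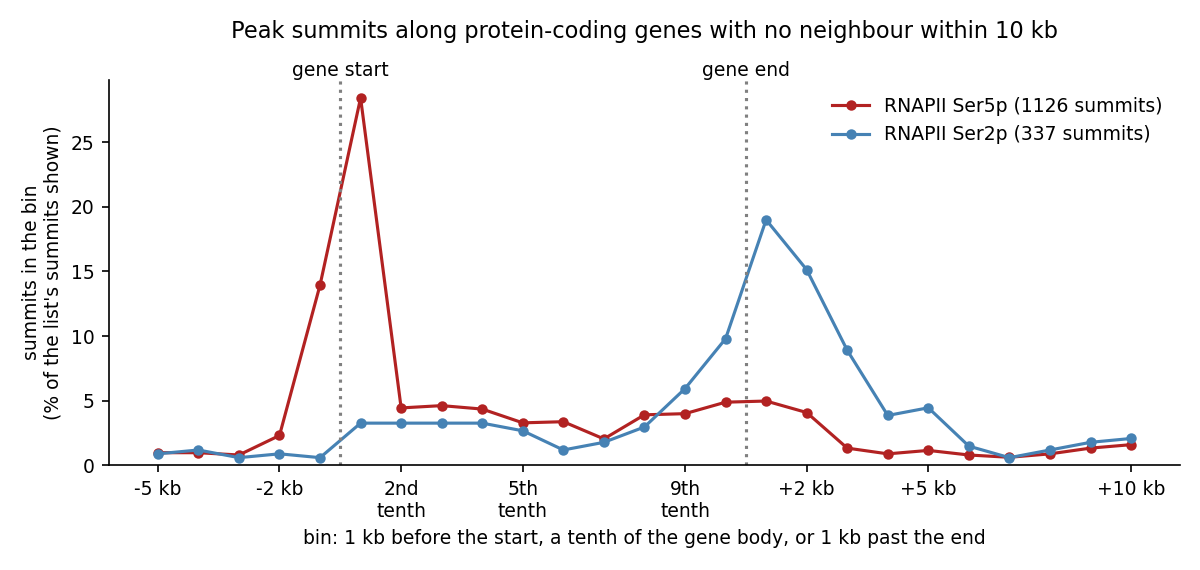
Share of the summits of each list (y axis, %) in consecutive bins along genes with no protein-coding neighbour within 10 kb (x axis: 1 kb bins before the start, 10 equal bins of the body, 1 kb bins past the end). The Ser5p line (1126 summits) peaks at 28.4% in the first bin of the body, and the Ser2p line (337 summits) peaks at 19.0% in the first kb past the end.

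Ser5p peaks at gene ends were shared with Ser2p more often than those at starts. A Ser2p peak overlapped 60.8% (56.3 to 65.2) of the Ser5p peaks at ends and 57.4% of those past ends, but 14.6% (13.0 to 16.4) of those at starts, 17.4% in bodies and 9.92% elsewhere. Of the 133 isolated genes with both marks, 110 had the strongest Ser2p summit downstream of the strongest Ser5p summit. The median position of the Ser2p summit over the 133 genes was 5771 bps downstream of the Ser5p summit, and in 26 the strongest summits were within 500 bps of each other. A Ser5p peak at the start together with a Ser2p peak at or past the end was found in 83 of them (62.4%), whereas 6 had both marks at the start and 67 had both at or past the end. In 27 genes Ser5p was at the start without Ser5p at or past the end, and Ser2p was at or past the end without Ser2p at the start.

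The named genes show these arrangements. *Actb*, the gene of cytoplasmic actin (chr5:142903115-142906754, minus strand, 1157 TPM), had 3 Ser5p summits, 63 bps downstream of the start (fold 19.2), at −191 bps from the end (5.25) and 664 bps past it (10.7), and Ser2p summits 874 bps downstream of the start (9.93) and 648 bps past the end (11.1). The strongest Ser5p peak of *Actb* was thus at the start and the stronger Ser2p peak past the end. *Ppia* (3727 TPM) had Ser5p summits 358 bps downstream of the start (9.23) and 593 bps past the end (5.84), and its only Ser2p summit was 653 bps past the end (6.81). *Pabpc1*, a cytoplasmic poly(A)-binding protein (chr15:36595661-36609668, minus strand, 993 TPM), had its strongest Ser5p summit 711 bps downstream of the start (11.8) and its only Ser2p summit 3331 bps past the end (5.33).

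Among the most expressed genes with both marks, *Ptma* (4615 TPM) had 4 Ser5p peaks, the strongest with summits 135 bps downstream of the start (17.5) and 1522 bps past the end (15.9), and its strongest Ser2p summit 1456 bps past the end (16.9). *Tpt1*, the gene of a translationally controlled tumour protein (6525 TPM), had the strongest Ser5p summit 257 bps downstream of the start (8.61) and the strongest Ser2p summit 537 bps past the end (5.74). *Eef1a1*, a translation elongation factor with 10124 TPM, and *Hsp90ab1*, a cytosolic chaperone with 3921 TPM, had the strongest summits of both marks past the end. For *Eef1a1* these were at 1559 bps (14.6) for Ser5p and 1471 bps (13.8) for Ser2p, and for *Hsp90ab1* at 419 bps (15.4) and 598 bps (14.6).

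*Nanog*, *Sox2* and *Pou5f1* carried Ser5p at the start and a second block of both marks past the end, whereas *Tbx3* had Ser2p in its body. *Nanog* (281 TPM) had 6 Ser5p peaks, the strongest 235 bps downstream of the start (11.3) and another 430 bps past the end (9.17), and 1 Ser2p peak 857 bps past the end (8.20). *Sox2* (364 TPM) had its strongest Ser5p summit at −289 bps from the start (14.2), a second 1313 bps past the end (11.8), and 4 Ser2p summits between 449 and 2998 bps past the end (4.02 to 6.24). *Pou5f1* had Ser5p summits along its body with folds of 3.24 to 6.96, and both marks were strongest past its end, at 3306 bps for Ser5p (11.5) and 3382 bps for Ser2p (11.6, chr17:35513398-35516496). Another protein-coding gene lay 1961 bps from *Pou5f1*, less than the distance of these summits. Which gene these peaks belong to was not tested. *Tbx3* (38.7 TPM) had 5 Ser5p peaks along the gene and 2 Ser2p peaks, which lay in the body at −4552 and −1825 bps from the end (3.86 and 4.10). *Esrrb* had 15 peaks of each mark over its 160512 bps, with the strongest Ser5p summit in the body (9.88) and the strongest Ser2p summit 3316 bps past the end (7.18).

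**Figure D4:**
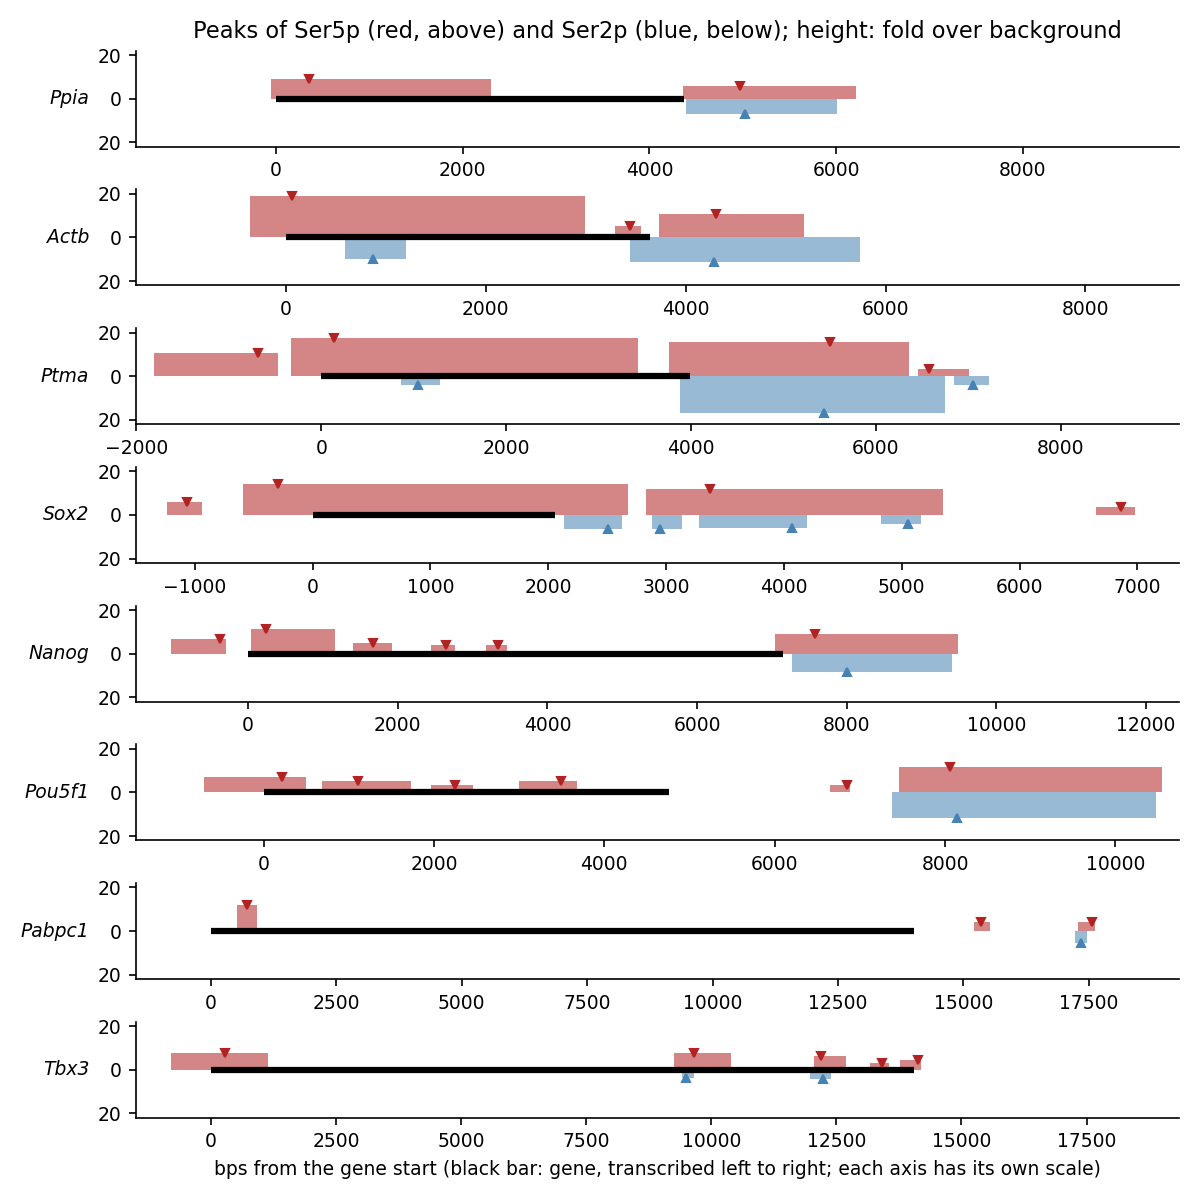
Peaks of Ser5p (red, above the line) and Ser2p (blue, below) on 8 genes, drawn to scale along the gene (x axis, bps from the start, black bar: the gene) with the fold over background as height (y axis) and a triangle at each summit. Ser5p blocks stand at the left end of every gene, and the Ser2p blocks of all genes but Tbx3 include one past the right end.

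Apart from the miR-290 cluster, described further on, the highest Ser2p folds were found past the ends of the following genes, in part at the start or end of a neighbour. *Rpl3* (1607 TPM) had Ser5p of 23.3 at 1176 bps and Ser2p of 23.4 at 1366 bps past its end. *H2afz*, a histone variant (804 TPM), had Ser5p of 24.7 at 605 bps and Ser2p of 21.7 at 618 bps past its end, and the same peaks were assigned to *Dnajb14*, which starts there. *Bax*, a regulator of apoptosis (159 TPM), had Ser5p of 17.7 and Ser2p of 21.1 at 4283 and 4443 bps past its end, where these summits lay within 1 kb of the end of another gene. Of isolated genes, *Eif1*, a translation initiation factor (483 TPM), and *Tmsb10*, an actin-binding thymosin (1556 TPM), each had 1 Ser2p peak, 652 bps (12.0) and 627 bps (12.0) past the end, beside their strongest Ser5p peaks (14.2 and 13.5).

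At the level of genes, a peak was assigned to each protein-coding gene whose body, 1 kb upstream or 5 kb downstream it touched. Of the 21938 genes, 1595 had Ser5p only (7.27%), 1221 had both marks (5.57%), 318 had Ser2p only (1.45%) and 18804 had neither. Of the genes with Ser2p, 79.3% had Ser5p, and of the genes with Ser5p, 43.4% had Ser2p. Neighbours shared many of these peaks, since 51.8% of the Ser2p peaks and 32.9% of the Ser5p peaks assigned to any gene were assigned to at least 2. In 265 of the 318 Ser2p-only genes (83.3%) every Ser2p peak also fell in the region of another gene. With peaks in the region of 1 gene only, 1038 genes had Ser5p only, 336 both and 83 Ser2p only. With the shortened Ser5p list, 494 genes had Ser5p only and 692 had Ser2p only.

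By median, genes with both marks were the most expressed and the shortest of the 4 classes. Their median TPM was 37.7 (interquartile range 8.50 to 125), against 19.3 (7.44 to 46.6) for Ser5p only, 13.6 (3.30 to 38.8) for Ser2p only and 0.467 (0 to 8.46) for neither. On isolated genes the medians were 95.8 TPM for both (133 genes), 22.3 TPM for Ser5p only (396 genes) and 60.9 TPM for Ser2p only (14 genes), so that the order of the last 2 classes turned around. The Ser2p-only median was also above the Ser5p-only median when only peaks in the region of 1 gene were used, at 41.8 and 28.5 TPM (83 and 1038 genes). Median gene length was 10.95 kb for both, 23.8 kb for Ser5p only and 16.8 kb for Ser2p only. Between 10 and 100 TPM it was 13.9 kb for both (540 genes) and 26.4 kb for Ser5p only (917 genes).

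The share of genes with a mark rose with expression for both marks. Ser5p was found on 1.13% of the 5747 genes at 0 TPM, on 12.0% from 1 to 10 TPM, on 26.2% from 10 to 100 TPM, on 52.6% (49.0 to 56.1) from 100 to 1000 TPM and on 96 of the 101 genes with 1000 TPM or more. Ser2p was found on 0.818%, 6.06%, 12.5%, 34.9% (31.6 to 38.3) and 93 of 101 genes of the same groups. Most of these 101 genes were genes of cytosolic ribosomal proteins, described below. Ser5p without Ser2p was found on 20.9% of the genes from 100 to 1000 TPM and on 3 of 101 above. Ser2p without Ser5p was found on 3.24% and on 0 of 101. The fold of the strongest peak followed TPM less, with medians of 4.90 for Ser5p and 5.13 for Ser2p from 10 to 100 TPM and of 9.84 and 7.33 from 1000 TPM.

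**Figure D5:**
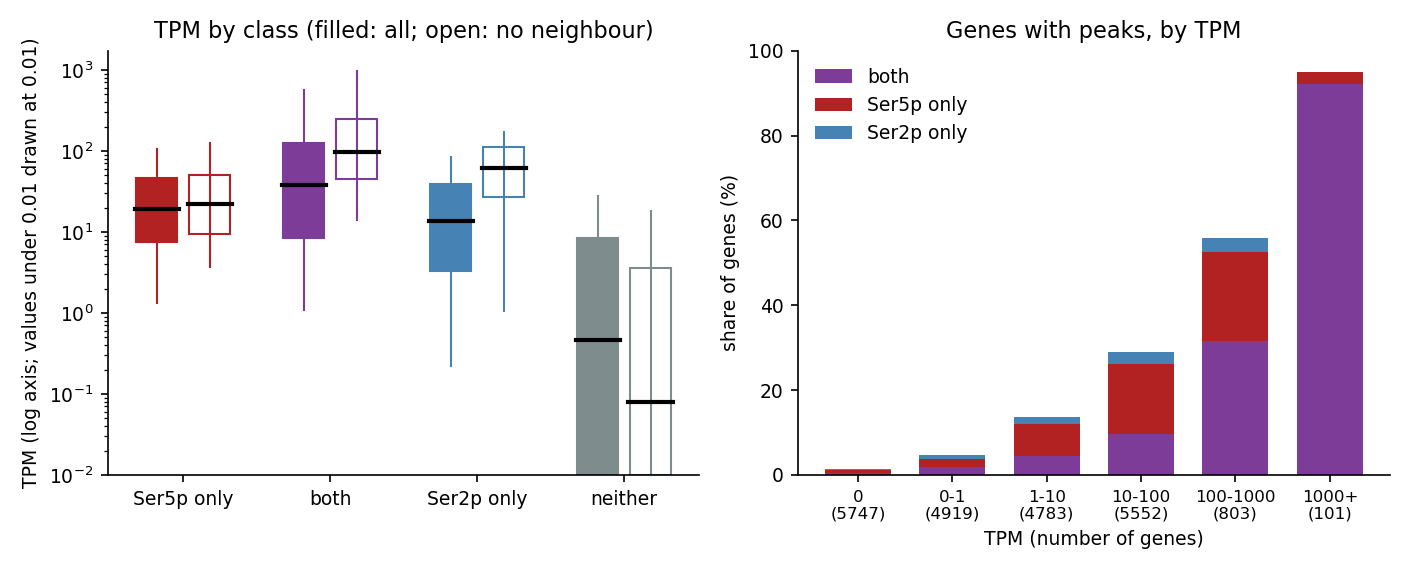
Left, TPM (y axis, log axis) of protein-coding genes by class, for all genes (filled boxes) and genes with no protein-coding neighbour within 10 kb (open boxes); boxes span the quartiles, lines the 10th to 90th percentile and black bars mark the median. Right, share of genes (y axis, %) with both marks, Ser5p only and Ser2p only by TPM (x axis, number of genes in brackets), where both marks reach 92.1% from 1000 TPM.

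Expressed genes without one of the marks were found in each class. Mitochondrial and histone genes and those of ribosomal proteins set aside, the most expressed Ser5p-only genes were *Ftl1-ps1* (2335 TPM), *Mif*, a cytokine (1138 TPM), *Nme2*, a nucleoside diphosphate kinase (693 TPM), *Cox4i1*, a cytochrome c oxidase subunit (690 TPM), and *Mt2*, a metallothionein (686 TPM). Their Ser5p folds were between 4.33 and 5.13. *Mif* had its summit 63 bps and *Mt2* 137 bps downstream of the start. The most expressed Ser2p-only genes were *Btf3* (704 TPM), *Ywhae* (669 TPM), *Ranbp1* (522 TPM), *Nap1l1*, a histone chaperone (321 TPM), and the splicing factor *U2af1* (301 TPM), with Ser2p folds between 2.90 and 5.57. In 4 of these the strongest Ser2p summit lay past the end, at 588 bps for *Nap1l1*, 1214 bps for *U2af1*, 2068 bps for *Ywhae* and 2551 bps for *Btf3*.

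Of the genes with neither mark, the translation elongation factor *Eef2* (1979 TPM) and the glycolytic *Pgk1* (712 TPM) were among the most expressed, beside *Eno1b*, *Gm2000* and *Gm11808* (1527, 1338 and 1255 TPM). *Eef2* also had no Ctr9, H3K27ac or NELFA peak in its region, whereas *Pgk1* had Ctr9 and H3K27ac. Whether ChIP-seq reads could be placed at *Eef2*, or were removed there with blacklisted regions, was not tested. The names of *Ftl1-ps1* and *Eno1b* are those of copies of other genes, and how reads of near-identical copies were shared between them was not tested.

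Among the Ser2p-only genes of high fold, several had a neighbouring gene close by. *Idh2*, the mitochondrial isocitrate dehydrogenase (86.4 TPM), had 6 Ser2p peaks, the strongest 3469 bps past the end (7.21). *Nras* (41.8 TPM, 7.03) and *Sh3d21* (1.19 TPM, 6.82) had Ser2p summits 170 and 373 bps downstream of the start, and each had another gene within 1 kb. Of the 14 isolated genes with Ser2p only, 11 had the strongest summit past the end. Chosen after their values were seen, examples were *Enah*, an actin regulator (628 bps, fold 5.77, 115 TPM), *Tcf15*, a transcription factor (910 bps, 5.77, 44.7 TPM), and *Idi1*, an enzyme of isoprenoid synthesis (1345 bps, 5.08, 57.5 TPM).

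Among the 5 Ser5p-only genes of highest fold with less than 1 TPM, 4 had the summit outside the gene. *Hist1h2bh* (fold 24.5, at −1249 bps from the start) and *Hist1h2ba* (17.7) belong to the histone gene clusters, whose mRNAs lack a poly(A) tail as a rule. The Ser5p peak at *Hist1h2bh* overlapped a Ser2p peak that lay outside the region of this gene. *Armh1* (19.3), *Slc35g3* (12.9) and *Slfn14* (12.9) had the peak 2359, 1302 and 3491 bps past their end, and the peak of *Slc35g3* was also that of its neighbour *Polr2a*.

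Gene groups differed in the mark they carried, and the percentages of all 21938 genes given above are the background for each count. Genes of ribosomal proteins and snoRNA hosts carried both marks most often among the lists. Of the 76 genes of cytosolic ribosomal proteins, 74 (97.4%) had both, at median folds of 9.69 for Ser5p and 7.31 for Ser2p and a median of 1661 TPM. Of all genes with 1000 TPM or more, most of which belong to this group, 92.1% had both. The others, *Rpl22* (1765 TPM) and *Rps13* (872 TPM), had Ser5p only, at folds of 3.15 and 5.70. The group's highest folds were those of *Rpl3*, given above. Of 19 protein-coding hosts of small nucleolar RNAs, which guide modification of ribosomal RNA, 17 had both marks, among them *Ncl* (12.0 and 8.58) and *Npm1* (12.8 and 8.66), while *Wdr43* had Ser5p only and *Eef2* neither.

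Of 28 SR and hnRNP splicing factor genes, 20 had both marks, 4 had Ser5p only (*Hnrnph1*, *Hnrnpm*, *Pcbp1* and *Srsf1*) and 4 had neither. *Hnrnpa2b1* was the group's highest for Ser2p, with folds of 14.5 for Ser5p and 18.3 for Ser2p. Of 19 genes of glycolysis and glucose uptake, 9 had both, 1 had Ser2p only (*Pfkm*, 3.95) and 9 had neither. *Gapdh* (2110 TPM) had folds of 18.4 and 15.0, and *Slc2a3*, a glucose transporter (362 TPM), had 13 Ser5p and 9 Ser2p peaks.

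Of the 24 pluripotency genes, 15 had both marks, 3 had Ser5p only and 6 had neither. The Ser5p-only genes were *Klf4* (89.7 TPM, 5.09), *Mycn* (18.0 TPM, 5.09) and *Nr0b1* (145 TPM, 5.99). Genes with neither included *Dnmt3l* (268 TPM), *Lin28a* (155 TPM) and *Tcl1* (146 TPM), so that expression above 100 TPM did not imply a peak.

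Immediate early genes carried Ser5p alone more often than both marks, as did protein-coding genes as a whole. Among all genes from 10 to 100 TPM, 16.5% had Ser5p only and 9.73% had both. Of 23 immediate early genes, which respond to growth factors within minutes, 8 had Ser5p only, 3 had both and 12 had neither. NELFA was present in 15 of the 23, against 10.4% of all genes. *Klf6* (23.2 TPM, 10.1), *Btg1* (31.5 TPM, 8.70), *Jund* (77.3 TPM, 8.55), *Dusp1* (21.5 TPM, 7.60) and *Egr1* (15.9 TPM, 7.51) were among those with Ser5p only. *Ier2* (21.3 for Ser5p and 14.2 for Ser2p), *Zfp36l1* (13.2 and 5.13) and *Junb* (11.1 and 6.28) had both. Among 23 heat shock and chaperone genes, 9 had Ser5p only and 10 had both. *Hspa1b*, a stress-inducible Hsp70 gene (5.62 TPM), had Ser5p at fold 19.2 without Ser2p, and *Hspa5*, the chaperone of the endoplasmic reticulum (219 TPM), at 10.4. The related *Hspa1a* (0.491 TPM) had neither mark, and how reads were shared between *Hspa1a* and *Hspa1b* was not tested. The constitutive *Hspa8* (720 TPM) had folds of 21.4 and 15.2, with the strongest summits of both marks in the body, at −3317 bps from the end for Ser5p and −3229 bps for Ser2p.

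Over all genes 85.7% had neither mark, and genes of the transcription machinery itself had neither in 79.3%, 76.9% and 60.0% of the 3 lists. Among all genes from 10 to 100 TPM, the range of most members of these lists, 71.0% had neither. Of 29 genes of pausing and elongation factors, 23 had neither mark, 4 had Ser5p only and 2 had both, and the 6.90% with both are close to the 5.57% of all genes. *Cdk12* (6.26) and the P-TEFb inhibitor *Hexim1* (6.64) had Ser5p only, and the Ser2 kinase *Cdk13* had both (4.91 and 5.13). Of 13 RNAPII subunit genes, 3 had Ser5p only, of which *Polr2a*, encoding the subunit with the CTD, had a fold of 12.9 (78.5 TPM), and 10 had neither. Of 25 genes for cleavage, polyadenylation and termination, 5 had both, 4 had Ser5p only, 1 had Ser2p only and 15 had neither. *Pcf11* (4.13 and 4.72), *Scaf4* (3.57 and 4.84), *Wdr33* (4.73 and 5.66) and *Pabpn1* (3.11 and 3.98) had the higher fold in Ser2p. *Pabpc1* had the higher fold in Ser5p (11.8 and 5.33), and *Ssu72*, a Ser5 phosphatase, had Ser2p only (4.84).

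Among genes of other lineages most had neither mark, as had 98.6% of all genes at 0 TPM and 95.4% of those above 0 and up to 1 TPM. All 36 developmental regulators that are known Polycomb targets, such as *Pax6* (2.02 TPM), *Gata4* (2.21 TPM) and *Sox17* (0.146 TPM), had neither mark, and none had H3K27ac, NELFA or Ctr9 in its region. Of 24 fibroblast genes, 22 had neither, among them the expressed *Sparc* (187 TPM), and *Fn1* (75.7 TPM, 7.02) and *Vim* (162 TPM, 3.69) had Ser5p only.

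Histone genes carried strong Ser5p and weaker Ser2p. Of 66 replication-dependent histone genes, 39 had both, 6 had Ser5p only and 21 had neither, and the median fold of the strongest peak was 19.1 for Ser5p and 5.34 for Ser2p. *Hist1h1a* had folds of 28.2 and 6.23, and *Hist1h2bc* 28.6 and 5.58. The clustered genes shared peaks with each other, and their TPM had a median of 0.735. The highest TPM, 812 for *Hist1h2ao*, belonged to a gene with neither mark. How reads were placed among similar histone genes was not tested, for the peaks or for TPM.

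Genes of small nuclear and small nucleolar RNAs together held most of the highest Ser5p peaks. Of the 10 strongest Ser5p peaks, 6 lay on an annotated snRNA gene and 1 on the snoRNA gene *Rnu3b2*, and of the 50 strongest 26 lay on snRNA or snoRNA genes, against 1 of the 50 strongest Ser2p peaks. Over the whole lists the shares were close, with 100 Ser5p peaks (2.23%) and 28 Ser2p peaks (1.67%) on such genes. The 34 Ser5p peaks on snRNA genes had a median fold of 18.6, and 5 of them overlapped a Ser2p peak. The 6 Ser2p peaks on snRNA genes had a median fold of 4.38. Most small nuclear RNAs are transcribed by RNAPII, from short genes without introns and without a poly(A) tail, and they form the core of the spliceosome. The strongest Ser5p peak of all (35.9, chr11:87426516-87427561) lay on *Gm22068*, inside the body of *Tex14*, with a Ser2p peak of 4.15 on it, and the second (34.1, chr11:101626945-101628399) lay on *Gm23849* at the start of *Rdm1* without Ser2p. The gene of *Gm22068* (mm10 chr11:87426716-87426879, plus strand) is shown whole, as the sequence under the highest Ser5p fold, without capitals.
Gm22068: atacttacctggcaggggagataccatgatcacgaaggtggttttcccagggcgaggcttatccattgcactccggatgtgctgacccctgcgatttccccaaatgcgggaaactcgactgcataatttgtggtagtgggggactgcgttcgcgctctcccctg

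Small nuclear RNA genes have near-identical copies, and how reads were placed among these was not tested. Whether peaks on small nucleolar RNA genes belong to a host gene was not tested either.

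The strongest Ser2p peak lay on the miR-290 cluster, which encodes the most abundant microRNAs of mESCs. There Ser5p (fold 30.4, 6104 bps wide, chr7:3217506-3223609) and Ser2p (27.6, 4979 bps wide, chr7:3218629-3223607) covered the hairpins together, with summits at the same place. Both peaks were assigned by position to *Nlrp12*, which lies on the other strand, had 0.0366 TPM and had the summits at −3179 and −3183 bps from its end. Of the 6 mature 3p sequences of the cluster listed in RefSeq on the plus strand, 3 share the seed AAGUGCU, and they are shown, with the seed (bases 2 to 8) in capitals, because they name the product of the region with the highest Ser2p fold.
mmu-miR-291a-3p: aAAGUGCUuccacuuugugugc
mmu-miR-294-3p: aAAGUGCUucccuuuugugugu
mmu-miR-295-3p: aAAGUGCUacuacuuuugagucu

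Base composition differed with the position of the summits. Windows of 300 bases at Ser5p summits at starts had a median GC content of 63.3% and 25 CpGs, against 58.0% and 14 CpGs at the starts of all protein-coding genes. Windows at Ser2p summits at ends had 49.7% GC, and those past ends 46.7%, against 41.0% at all gene ends and 41.3% in all consecutive windows of the genome. AATAAA, on either strand, was present in 25.9% (21.9 to 30.2) of the windows at Ser2p summits at ends and in 21.7% past ends, against 76.8% of the windows centred on gene ends and 38.8% of all windows of the genome.

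The lists also differed in the other marks found on their peaks. A peak of Ctr9, a subunit of the elongation complex Paf1C, was on 1670 of 1673 Ser2p peaks and on 77.1% (75.9 to 78.3) of the Ser5p peaks, with 44748 Ctr9 peaks covering 1.20% of the genome. Ctr9 was precipitated through GFP in a Ctr9-GFP knock-in pool and NELFA through GFP in NELFA-tagged cells, which one passage of the study's text also names for Ser5p, and the part of the line in these shares was not tested. Ctr9 was least frequent on Ser5p peaks at starts, at 59.1%, and was on 98.8% of those at ends. NELFA, a subunit of the pausing complex, was on 27.6% (26.3 to 28.9) of the Ser5p and 11.9% (10.4 to 13.5) of the Ser2p peaks, with 51.5% of Ser5p peaks at starts and 6.02% of those at ends. Of the 626 Ser2p peaks without Ser5p, 7 had NELFA. H3K27ac, a mark of active promoters and enhancers, was on 59.8% of the Ser5p and 24.1% of the Ser2p peaks, on 84.8% of the Ser5p peaks at starts and on 8.11% of the Ser2p peaks at ends.

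At genes, NELFA was present in 53.1% (50.6 to 55.6) of the Ser5p-only genes, 52.6% (49.7 to 55.4) of the genes with both and 10.7% (7.52 to 14.6) of the Ser2p-only genes, against 10.4% of all genes. The first 2 shares differed by less than their counting error. H3K27ac was present in 96.0%, 91.0% and 72.6% of the same classes, against 43.1% of all genes.

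On super enhancers, large clusters of enhancers near cell identity genes, Ser5p was more frequent than Ser2p. Their coordinates were those listed with the study. Of 231 super enhancers, 146 (63.2%, 56.6 to 69.4) had a Ser5p peak and 22 (9.52%, 6.07 to 14.1) had a Ser2p peak. The study's text gives higher shares of these super enhancers for both marks, most of all for Ser2p. Why the peak lists used here give lower shares was not tested. All 22 with Ser2p also had Ser5p, and 85 had neither. The super enhancers held 9.03% of the Ser5p peaks at a median fold of 4.82 and 2.21% of the Ser2p peaks at 4.33. Those with both marks had a median length of 12.3 kb, against 9.30 kb with Ser5p only.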

How the data were processed

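ChIP-seq of Ser5p and Ser2p was made with E14 cells as single runs. Reads were aligned to mm10 with Bowtie2 2.3.5.1, reads in ENCODE blacklisted regions were removed, and peaks were called by the authors with MACS2 2.2.6 at a q-value threshold of 0.01. Each deposited peak holds its extent, the fold of the summit over the local background (a ratio), the −log10 q-value and the position of the summit. Read totals of the ChIP libraries are not given in the sources used here. RNA-seq was quantified by the authors with kallisto 0.46.1, and the deposited table holds estimated counts and TPM of 137767 transcripts.

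Peaks on assembled chromosomes were compared by overlap (at least 1 bp) and by summit position relative to 21938 protein-coding genes of GENCODE M21, of which 21905 had a TPM. The gene value was the TPM of its highest transcript, so no pseudocount or filter on low values was used. Exact binomial intervals were computed with SciPy 1.17.1 (Python 3.11.15, pandas 2.3.3, NumPy 2.4.6, Matplotlib 3.10.9). The functions for overlap, position and gene class were tested on simulated data.

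Genes were named by rule: genes the study names for RNAPII or pluripotency, the 5 genes with the strongest peak of each mark, the 5 most expressed of each class without mitochondrial, ribosomal protein and histone genes, the 5 strongest Ser5p-only genes below 1 TPM, the 5 strongest Ser2p-only genes, the 5 isolated genes with the highest smaller fold of both marks, and examples from 13 gene lists. The comparison, the genes and the lists were chosen with earlier results of these data known, so that none of them is independent support. One result that this rule selects is not reported here. Data of NIH3T3 fibroblasts were not used here.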

Additional observations from a re-analysis of the deposited data

How the results depend on the processing

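No paired analysis was possible because each group holds 1 sample. Of 81 values under another setting, 32 stayed close to the reported value (within its interval, or within 1.5 times a count) and 49 moved. With peaks of −log10 q of at least 5, median fold and width were 5.02 and 479 bps for Ser5p and 5.09 and 520.5 bps for Ser2p. With the Ser5p list shortened to the size of the Ser2p list, Ser5p overlap was 33.4%, Ser2p overlap 40.7%, Ser5p starts 41.5%, Ser5p past ends 6.22%, Ser5p fold 6.54 and width 815 bps, 494 genes had Ser5p only (21.5 TPM), genes with both had 48.2 TPM, and 692 genes had Ser2p only (19.1 TPM). Overlap was 20.4% (Ser5p) and 59.4% (Ser2p) when the overlap had to reach 50% of the shorter peak, and 19.5% and 52.8% by summits within 500 bps.

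With windows of 500 bps, Ser5p was 31.7% at starts and 5.77% at ends, and Ser2p 16.0% and 15.4%. With ends counted before starts, Ser5p was 33.9% and 14.8%, and Ser2p 11.2% and 37.2%. With the bounds of the most expressed transcript, ends and past ends held 9.69% and 7.69% of Ser5p and 24.4% and 23.3% of Ser2p, and the strongest summits were at a median of 91 bps from the start and 1079 bps past the end. Among these settings, Ser2p was less frequent at starts than at ends except with windows of 500 bps.

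Median TPM for Ser5p only was 22.9 when genes were extended by 1 kb on both sides. With summed TPM the medians were 32.6 (Ser5p only), 61.5 (both) and 20.7 (Ser2p only). On isolated genes the classes held 396, 133 and 14 genes at 22.3, 95.8 and 60.9 TPM. With peaks in the region of 1 gene only, a setting added after seeing the data, they held 1038, 336 and 83 genes at 28.5, 79.98 and 41.8 TPM. The size of the Ser2p-only class and its order against Ser5p only in TPM therefore depend on shared peaks. Read depth is unknown and each mark has 1 library, which limits what the difference in list length can show.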

Other observations

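Across the 1221 genes with both marks, the folds of the strongest Ser5p and Ser2p peaks had a Spearman rho of 0.452, and of 0.543 across the 133 isolated genes. Fold and TPM had a rho of 0.124 for Ser5p (2803 genes) and 0.120 for Ser2p (1532 genes). These are descriptions across genes of single libraries, and neighbouring genes share peaks.

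Of 1507 snoRNA genes, 40 had both marks, 80 had Ser5p only and 1 had Ser2p only. Whether the peaks on snoRNA genes belong to their host genes was not tested. Of 5854 lincRNA genes, 30 had both, 117 had Ser5p only and 10 had Ser2p only. The nearest Ser5p summit was at a median of 16663.5 bps from Ser2p peaks without overlap, and the nearest Ser2p summit at 60174 bps from Ser5p peaks without overlap.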
